A study of Mus musculus with 6 samples.

Results

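The genes described here are Gdf6, Npr2, Dlx5 and Dlx6, 4 genes known for shaping the skeleton. They were chosen by name, as the rows that carry these 4 symbols among the 53546 rows of each count file. RNA sequencing was described from C57BL/6 mice in 2 groups of 3 libraries, wild type and intervertebral disc degeneration by their labels, all with the intervertebral disc, the pad between vertebrae, as the labelled source. The labels name no treatment, operation or allele behind the degeneration. They do not state that the libraries came from different mice, so p-values measure only the spread between these libraries, perhaps a technical one. The accompanying design text speaks of retinal RNA from 21-day-old mice, and the groups used here follow the labels of the samples.

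Gdf6 encodes a secreted growth and differentiation factor of the bone morphogenetic protein (BMP) family. Such ligands bind paired type I and type II receptors and act through SMAD proteins, and Gdf6 is known for forming joints and for keeping skeletal elements apart, including the vertebrae. Npr2 encodes natriuretic peptide receptor B, a guanylyl cyclase at the cell surface that is switched on by C-type natriuretic peptide, the product of Nppc, and promotes growth of cartilage in the growth plate. Dlx5 and Dlx6 encode homeodomain transcription factors that lie next to each other, are transcribed towards each other, and pattern the jaw and limbs and promote bone formation.

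Most rows of the count files do not lie on the gene whose name they carry when their intervals are read as positions on GRCm38, the mouse build whose GENCODE M21 annotation was used. Of the 53546 rows, 49890 had no base on exons of the named gene, and 1740 had at least 90% of their bases there. These 1740 rows are called in register, and all 4 genes were among them with 100% of their bases on their own exons. Gdf6 (ENSMUSG00000051279.2) is a protein-coding gene on the plus strand of chromosome 4, at 9844372 to 9862345, and its row covers 3532 exon bases. Npr2 (ENSMUSG00000028469.15) lies on the plus strand of the same chromosome at 43631935 to 43651244, with 4667 exon bases. Dlx5 (ENSMUSG00000029755.10) lies on the minus strand of chromosome 6 at 6877805 to 6882085, with 2263 exon bases. Dlx6 (ENSMUSG00000029754.13) lies on the plus strand of chromosome 6 at 6863334 to 6868568, with 2375 exon bases. Gdf6 and Dlx5 overlap no other annotated gene. Npr2 overlaps the antisense gene Gm12473, and Dlx6 overlaps the antisense genes Dlx6os1 and Dlx6os2.

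The counting left out read pairs with more than 1 mapping place, so it matters how far each gene can be told from its closest relatives. The following 60-base windows are those where the coding sequence of each gene is most like that of a relative within a single exon of each. They are written 5′ to 3′ on the coding strand from the GENCODE M21 transcripts, with the bases that differ between the 2 genes in capitals.
Gdf6, chr4:9860006-9860065, plus strand: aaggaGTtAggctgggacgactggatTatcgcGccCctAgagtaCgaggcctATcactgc
Gdf5, chr2:155941762-155941821, minus strand: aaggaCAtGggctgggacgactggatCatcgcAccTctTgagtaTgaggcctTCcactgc
Npr2, chr4:43648141-43648200, plus strand: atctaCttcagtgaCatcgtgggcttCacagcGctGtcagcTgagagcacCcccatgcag
Npr1, chr3:90455896-90455955, minus strand: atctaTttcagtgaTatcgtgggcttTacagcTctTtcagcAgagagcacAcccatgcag
Dlx5, chr6:6879526-6879585, minus strand: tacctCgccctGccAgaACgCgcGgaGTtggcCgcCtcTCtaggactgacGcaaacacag
Dlx6, chr6:6865212-6865271, plus strand: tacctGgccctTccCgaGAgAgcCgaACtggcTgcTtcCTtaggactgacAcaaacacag

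The window of Gdf6 lies in the part of the gene that encodes the mature signalling molecule, that of Npr2 in the guanylyl cyclase domain and that of Dlx5 and Dlx6 in the homeodomain. Gdf6 and Gdf5 were identical at 50 of the 60 bases, Npr2 and Npr1 at 53, and Dlx5 and Dlx6 at 46. Over the whole coding sequences the longest identical run was 17 bases for Gdf6 and Gdf5, 18 for Npr2 and Npr1, and 14 for Dlx5 and Dlx6. No 50-base word of the Gdf6 or Dlx5 transcripts occurred in a transcript of another gene, among 3483 and 2259 words. Of the 4999 words of Npr2, 218 (4.36%) were shared, all of them with Gm12473. Of the 2350 words of Dlx6, 143 (6.09%) were shared, with transcripts of 596 genes. The read length is not given in the sources used here.

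The libraries held 3119215 to 4009562 counts, of which 6.03% to 8.35% fell on rows in register. Detection was taken to begin at 3 counts, the floor, which is 0.748 to 0.962 CPM (the count scaled by the total of its library), and floors and 95% intervals given here (exact Poisson) cover counting error only. The profiles of the degeneration libraries fell into 2 kinds. Degeneration 2 and 3 had a correlation of 0.979 with each other across rows and of 0.684 to 0.697 with the other 4 libraries, and degeneration 1 had one of 0.963 to 0.977 with wild type 1 to 3. Of a list of 10 heart muscle genes, 7 could be located by position, and their summed level was 28720 to 32500 CPM in wild type 1 to 3 and degeneration 1, but 30.4 and 32.1 CPM in degeneration 2 and 3. Of 8 kidney tubule genes, 6 were located, and their sum was 33.3 to 49.1 CPM in the former 4 libraries and 10370 and 8252 CPM in the latter 2. Most located markers of the labelled tissue were low or at 0, each counted over only a part of its exons. Of 9 cartilage and annulus genes 4 were located, with a sum of 9.45 to 18.5 CPM. Acan, which encodes the disc proteoglycan aggrecan, had 2 and 1 counts in wild type 1 and 2 and none elsewhere. Col11a2 stood at 9.98, 9.23 and 4.52 CPM in wild type and at 3.78, 0.869 and 1.28 CPM in degeneration. Its degeneration libraries were all below its wild type libraries, as in 8.53% of the located genes with a mean of at least 1 CPM. Chad (2.80 to 7.69 CPM) and Cnmd (1.40 to 3.53 CPM) had overlapping groups. Noto, a notochord transcription factor, had at most 1 count in a library. Krt19, a keratin of notochordal cells, had none over the 156 of its 1855 exon bases that were counted. The 2 other located genes of the 7 on the nucleus pulposus and notochord list, Krt8 and Cd24a, which kidney epithelium also expresses, stood at 127 and 125 CPM and at 352 and 362 CPM in degeneration 2 and 3. The fold changes of Gdf6 and Npr2 are therefore given with all 6 libraries, without degeneration 1, and without degeneration 2 and 3.

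Gdf6 had the wider relative difference between the groups of the 2 genes above the floor, and it was high in wild type 1 and 2 alone. Its counts were 75, 53 and 8 in the wild type libraries, in order of their numbers, and 7, 2 and 5 in the degeneration libraries. These correspond to 18.7, 14.8 and 2.41 CPM in wild type and to 2.20, 0.579 and 1.60 CPM in degeneration. Wild type 1 and 2 stood well above the other 4 libraries, and wild type 3 stood next to degeneration 1. The 95% intervals of wild type 1 (14.7 to 23.5 CPM) and wild type 2 (11.1 to 19.4 CPM) overlapped each other and no other library's. The interval of wild type 3 was 1.04 to 4.75 CPM, and that of degeneration 1 was 0.886 to 4.54 CPM. Both overlapped the intervals of degeneration 2 and 3, which began at 0.0702 and 0.521 CPM and ended at 2.09 and 3.74 CPM. In degeneration 2 the count was below the floor of 3.

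The mean level of Gdf6 was 11.98 ± 8.51 CPM in wild type (SD, n = 3) and 1.46 ± 0.821 CPM in degeneration (SD, n = 3). The groups did not overlap, by a margin that rests on wild type 3 and degeneration 1 with 8 and 7 counts. The same was true of 7.71% of all rows averaging at least 1 CPM (1552 of 20132, every degeneration library below every wild type library). The exact 2-sided permutation test of the means gave p = 0.1, the smallest that 3 libraries against 3 allow. Gdf6 was left out of the quasi-likelihood test of edgeR across all rows, because its filter on low counts asks for a minimum count in 3 libraries and only wild type 1 and 2 reached it. When every row averaging at least 1 CPM was kept, the log2 fold change was -3.22 (SE 0.90, adjusted p = 0.231 by edgeR), and none of the 20132 rows tested (0%) passed 0.05, although 4115 (20.4%) had an unadjusted p below it.

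DESeq2 called Gdf6 lower in degeneration, with a log2 fold change of -3.21 (SE 0.96, adjusted p = 0.0265). DESeq2 called 946 of 18806 rows (5.03%), of which 103 (0.548% of those tested) were lower in degeneration. Without degeneration 1, Gdf6 passed the filter and the edgeR test, with a log2 fold change of -3.88 (SE 0.81, adjusted p = 0.00139). In that comparison 8703 of 17272 rows (50.4%) were called, 4226 of them (24.5%) lower in degeneration, a share against which the Gdf6 call is read. Without degeneration 2 and 3, and with the same filter on low counts, the log2 fold change against the lone degeneration 1 was -2.36 (SE 1.025 by edgeR). The lone library is assumed there to vary like the others. In whole-tissue RNA, fewer cells that express Gdf6 and less Gdf6 RNA per cell cannot be told apart. Degeneration 2 and 3 are also the libraries high in kidney tubule genes and low in heart muscle genes. The part of that difference in the Gdf6 values was not tested.

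**Figure D1:**
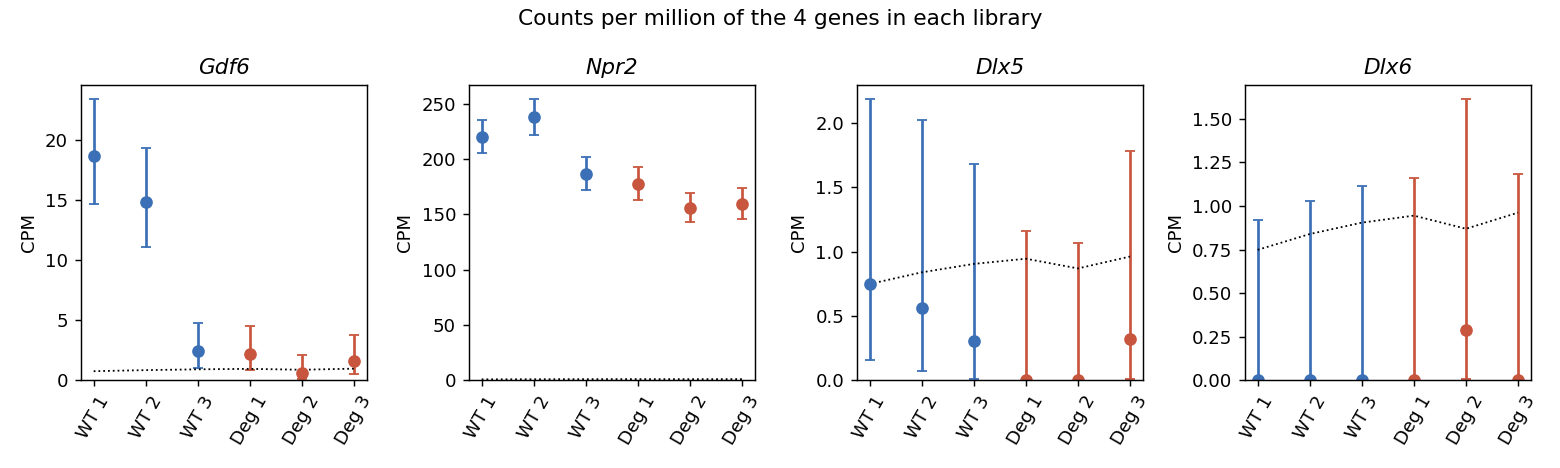
Level (CPM, vertical axis, a separate linear scale for each gene) of Gdf6, Npr2, Dlx5 and Dlx6 in each library, with wild type (WT) in blue and degeneration (Deg) in red. Points are single libraries, bars are exact Poisson 95% intervals (counting error only), and the dotted line is the level of 3 counts in each library. Gdf6 is high in wild type 1 and 2 alone, at 18.7 and 14.8 CPM, Npr2 spans a narrow range from 156 to 238 CPM, and every Dlx5 and Dlx6 point lies at or below the dotted line.

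The type I collagen genes followed the same order of libraries as Gdf6, and the other fibroblast markers did not. That order was not particular to fibroblast genes. On CPM it was also that of Fstl1, of the macrophage markers Lyz2 and C1qc, of the endothelial marker Pecam1 and of Col11a2. The 4 fibroblast markers, all located, summed to 2817, 1469 and 959 CPM in the wild type libraries and to 956, 604 and 734 CPM in the degeneration libraries, and none of the 4 was at 0 in any library. In 2 of the 4, Col1a1 and Col1a2, every degeneration library was below every wild type library, as in 8.53% of the located genes with a mean of at least 1 CPM. These 2 made up most of the sum. Pdgfra, a growth factor receptor, stood at 180, 178 and 144 CPM in wild type and at 169, 208 and 282 CPM in degeneration, highest in degeneration 2 and 3. Dcn, the proteoglycan decorin, stood at 259, 175 and 221 CPM in wild type, with 250, 24.3 and 31.1 CPM for the degeneration libraries in order. The part of these markers in the Gdf6 values was not tested. Gdf6 was also compared with the 463 rows in register that had a mean of at least 5 CPM, by the root mean square difference of log2(CPM + 1) centred on each gene's mean over the 6 libraries. The median difference from Gdf6 was 1.46. The nearest was Nr4a3, an orphan nuclear receptor, with a difference of 0.570 and levels of 13.5, 17.6 and 3.32 CPM in wild type and 7.87, 0.869 and 2.89 CPM in degeneration. Col1a2, a chain of type I collagen, was next with a difference of 0.603. Its levels were 1749, 832 and 448 CPM in wild type and 408, 317 and 353 CPM in degeneration. Pdk4, a kinase that turns off pyruvate dehydrogenase, had a difference of 0.612, with 1258, 1021 and 295 CPM in wild type and 474, 87.5 and 95.2 CPM in degeneration. All 3 were chosen for likeness over these libraries and had their highest levels in wild type 1 and 2, as Gdf6 did. In Nr4a3 and Pdk4 degeneration 1 stood above wild type 3. The 6 libraries share their depth and scaling across these genes, and these differences describe likeness only.

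**Figure D2:**
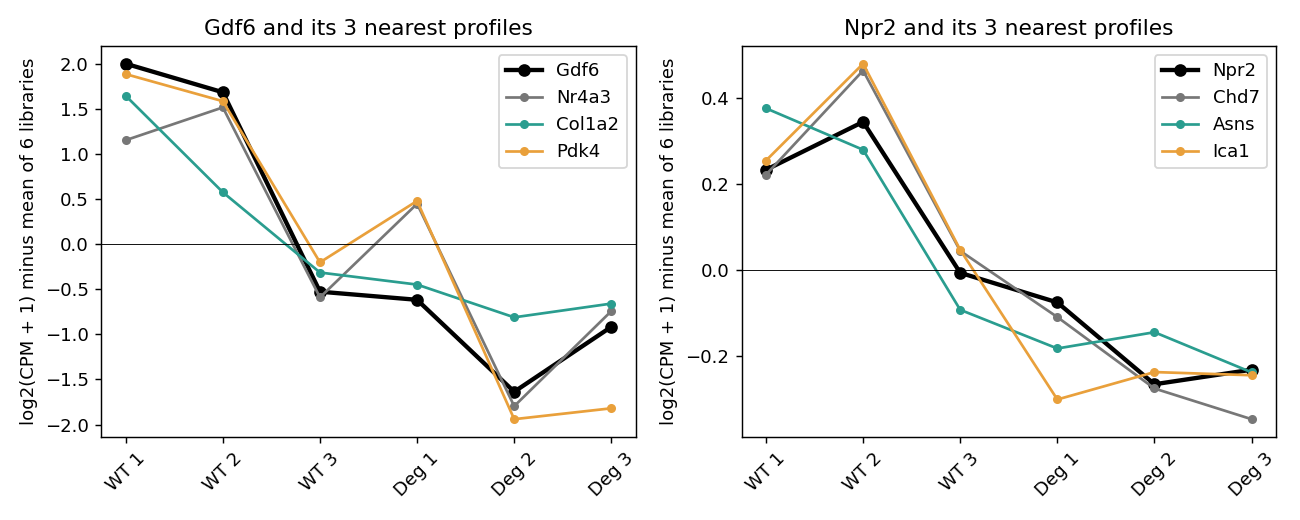
Profiles of Gdf6 (left) and Npr2 (right), in black, with the 3 rows in register nearest to each. The vertical axis is log2(CPM + 1) minus the gene's mean over the 6 libraries, the horizontal axis lists the libraries, which have no order within a group, and lines only join the points of a gene. The vertical scales differ: the nearest gene to Gdf6 differs from it by 0.570 and the nearest to Npr2 by 0.0724 (root mean square).

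Few rows in register lie near Gdf6 on chromosome 4. The nearest protein-coding rows in register were Asph, an aspartyl hydroxylase gene, 175028 bases before it, and 2610301B20Rik, 1012153 bases after it. Asph stood at 931, 884 and 1090 CPM in wild type and at 1146, 415 and 384 CPM in degeneration, so it was low in degeneration 2 and 3 and not in wild type 3 or degeneration 1. Plekhf2, on the far side, went the other way, with 52.1, 48.4 and 49.7 CPM in wild type and 52.0, 176 and 130 CPM in degeneration. Clvs1, a gene of vesicle traffic, had 21, 20 and 21 counts in wild type, 7 in degeneration 1 and none in degeneration 2 and 3. None of the 6 nearest rows (with Chd7 and Ndufaf6) passed 0.05 in the edgeR test with 6 libraries, nor did any of the 14967 rows tested. In none of the 6 did wild type 3 stand as far below wild type 1 and 2 as in Gdf6.

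The ligands related to Gdf6 gave little to set beside it. Of 14 other GDF and BMP ligands, 4 could be located by position, none of them in register and each over a part of its exons. Gdf5, the closest relative and a joint-forming factor in its own right, had 15, 8 and 5 counts in wild type and 6, 4 and 9 in degeneration, over 187 of its 2320 exon bases. The groups overlapped, and Gdf5 was not tested for its low counts. Gdf11, which patterns the vertebral column along its length, stood at 14.2, 12.02 and 10.3 CPM in wild type and at 13.5, 19.4 and 26.9 CPM in degeneration. Its log2 fold change was 0.46 (SE 0.23, adjusted p = 0.313 by edgeR). Bmp10, a ligand of the developing heart, had 3 to 10 counts in a library, and Gdf2, a circulating ligand, had 2 counts in wild type 2 and none elsewhere. Gdf11 alone of the ligands was tested, and 0 of 1 passed, beside 0 of the 5434 located genes tested.

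Of 7 BMP receptors, only Bmpr2, a type II receptor, was located, over 203 of its 17983 exon bases. Its levels were 47.6, 43.1 and 38.0 CPM in wild type and 37.5, 43.2 and 46.5 CPM in degeneration. The groups overlapped. Of 12 BMP antagonists and inhibitors, 3 were located and 2 tested. Fstl1, a secreted follistatin-like glycoprotein, was counted over 353 of its 4914 exon bases. Its levels were 140, 92.3 and 57.3 CPM in wild type and 57.0, 26.4 and 27.6 CPM in degeneration. The log2 fold change of Fstl1 was -1.51 (SE 0.53, adjusted p = 0.233) by edgeR. Bambi, a pseudoreceptor in register, stood at 40.9, 29.4 and 21.7 CPM in wild type and at 25.8, 19.7 and 22.4 CPM in degeneration, with overlapping groups. Fst, follistatin itself, had at most 9 counts. The 2 tested antagonists had a median log2 fold change of -1.06, beside -0.000248 over all located genes tested. Neither passed with 6 libraries, nor did any of the 5434 located genes tested. Both antagonists were called lower without degeneration 1, where 53% of the 5969 located genes tested were called and 26.2% were called lower.

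Of 10 SMAD transducers and BMP targets, Id1 and Id4 were located. Id1, an inhibitor of basic helix-loop-helix factors and a classic BMP target, stood at 86.8, 95.1 and 68.1 CPM in wild type and 97.0, 114 and 78.9 CPM in degeneration. Id1 therefore showed no separation of the groups, and its log2 fold change was 0.01 (SE 0.24, adjusted p = 0.982 by edgeR). Id4 had 0 to 3 counts in wild type 1 to 3 and degeneration 1, and stood at 106 and 88.2 CPM in degeneration 2 and 3, the libraries with the kidney tubule genes. The part of those genes' cells in the Id4 level was not tested. Over these 4 lists of the BMP pathway, 10 of 43 genes were located, 5 were tested and 0 passed with 6 libraries. None of the 5434 located genes tested passed there, so the 0 is not particular to this pathway. Fstl1 alone of the 10 had every degeneration library below every wild type library, by a narrow margin. Its degeneration 1 stood at 57.0 CPM and its wild type 3 at 57.3 CPM. Such a separation was found in 8.53% of the 6485 located genes with a mean of at least 1 CPM. None of the 10 had every degeneration library above every wild type library, as had 12.4% of those 6485 genes.

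Npr2 was the most abundant of the 4 genes per length of exon. Its mean level was 46.0 CPM per kb in wild type and 35.2 in degeneration, against 3.39 and 0.414 for Gdf6, 0.237 and 0.0472 for Dlx5, and 0 and 0.0407 for Dlx6. Its counts were 882, 850 and 618 in the wild type libraries and 564, 537 and 497 in the degeneration libraries. These correspond to 220, 238 and 186 CPM in wild type and to 178, 156 and 159 CPM in degeneration. Every degeneration library was below every wild type library, as in 7.71% of all rows averaging at least 1 CPM. The relative range was far narrower than that of Gdf6. From the top, the order was wild type 2, wild type 1, wild type 3, degeneration 1, degeneration 3 and degeneration 2. Wild type 1 and 2 had overlapping intervals, of 206 to 235 and 222 to 254 CPM, both above the interval of wild type 3 (172 to 202 CPM). The interval of wild type 3 overlapped those of degeneration 1 (163 to 193 CPM) and degeneration 3 (146 to 174 CPM) and lay above that of degeneration 2 (143 to 169 CPM). Degeneration 1 to 3 overlapped each other.

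The mean level of Npr2 was 215 ± 26.1 CPM in wild type (SD, n = 3) and 164 ± 11.8 CPM in degeneration (SD, n = 3), with p = 0.1 by the exact 2-sided permutation test, the smallest this design allows. On CPM scaled by TMM, the trimmed mean of M-values that the edgeR test uses, the values were 234, 270 and 205.2 in wild type and 205.5, 126 and 128 in degeneration. On that scale wild type 3 and degeneration 1 overlapped, and the exact permutation test gave p = 0.2. With 6 libraries the log2 fold change was -0.57 (SE 0.24, adjusted p = 0.290 by edgeR). None of the 14967 rows tested (0%) passed 0.05, and 2596 (17.3%) had an unadjusted p below it. The unadjusted p of Npr2 was 0.0530.

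The log2 fold change of Npr2 depended on which degeneration libraries were compared. Without degeneration 1, Npr2 was called lower, with a log2 fold change of -0.87 (SE 0.15, adjusted p = 0.000338) by edgeR, in a comparison where 24.5% of all rows tested were called lower. Without degeneration 2 and 3 the log2 fold change was -0.20 ± 0.21 (SE) and the adjusted p 0.879. These fits use TMM scaling, under which Npr2 in degeneration 1 was level with wild type 3. On CPM degeneration 1 was also below every wild type library, and leaving it out moved the difference of the means only from -50.5 to -57.2 CPM. Degeneration 2 and 3 are the libraries high in kidney tubule genes and low in heart muscle genes, whose part in the Npr2 values was not tested. Most endothelial markers were lower along with Npr2. Of 5, 4 were located, with a sum of 801, 802 and 652 CPM in wild type and of 506, 349 and 359 CPM in degeneration, and none at 0. In Pecam1, Eng and Tek every degeneration library was below every wild type library, as in 8.53% of the located genes with a mean of at least 1 CPM. Emcn, at 2.99, 4.47 and 6.93 CPM in wild type and 5.35, 5.50 and 5.13 CPM in degeneration, did not separate the groups. Eng, Tek and Emcn were counted over 152 of 4048, 262 of 4712 and 107 of 5409 exon bases. The 4 macrophage markers, all located and none at 0, summed to 264, 219 and 158 CPM in wild type and to 159, 132 and 125 CPM in degeneration. Lyz2, counted over 125 of its 1316 exon bases, and C1qc had every degeneration library below every wild type library, beside the same 8.53%. For C1qc the margin was narrow, with 16.1 CPM in degeneration 1 and 16.3 CPM in wild type 3. By contrast, Csf1r stood at 68.8, 64.9 and 65.1 CPM in wild type and at 61.1, 114 and 96.8 CPM in degeneration. The part of these markers in the Npr2 values was not tested either.

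**Figure D3:**
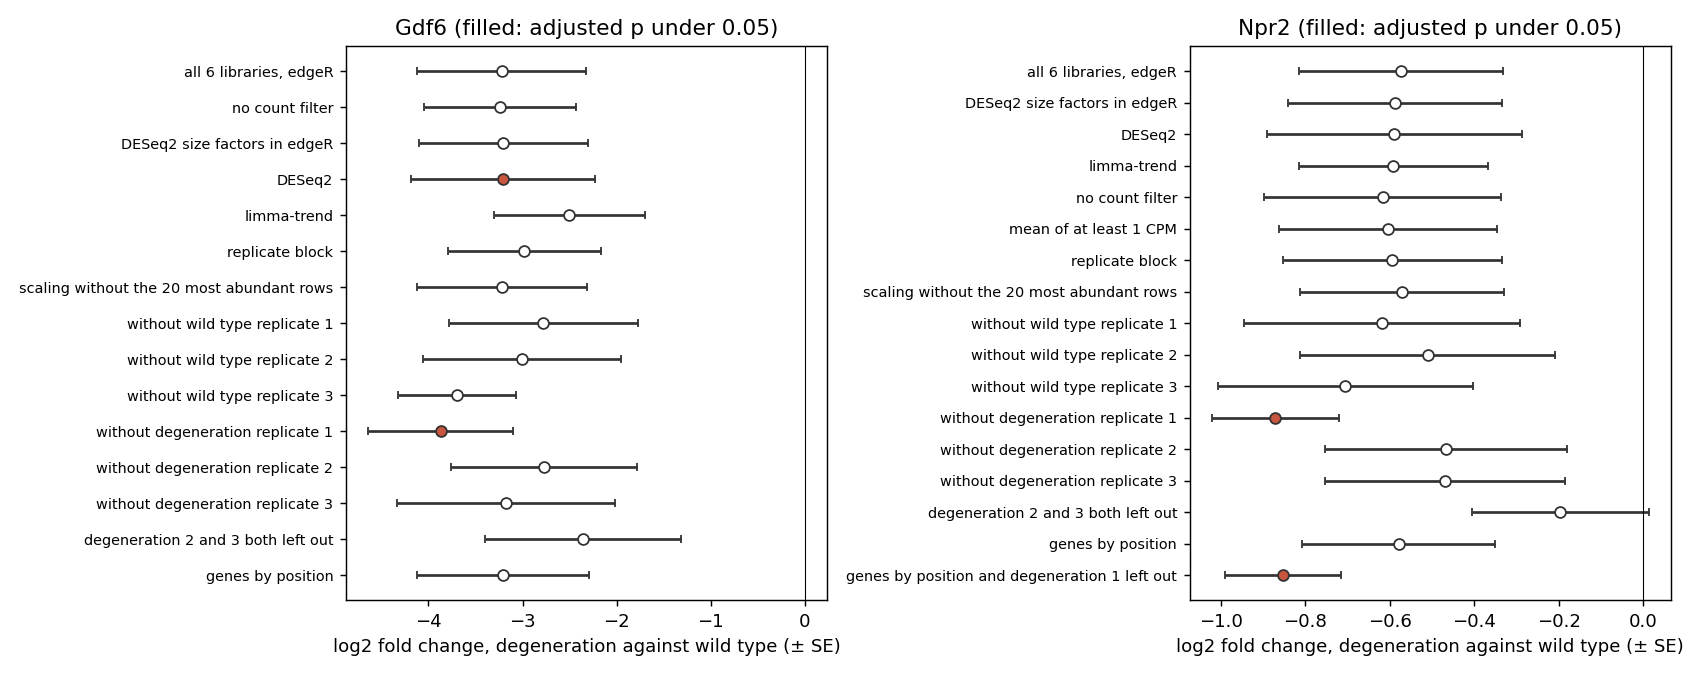
Log2 fold change of Gdf6 (left) and Npr2 (right), degeneration against wild type, under each way of processing the counts. Bars are standard errors, worked out from the test statistic for edgeR. Filled points have an adjusted p under 0.05, and the vertical line marks no difference. For Gdf6 every fit keeps rows averaging at least 1 CPM, or more where the label says no count filter; every point lies below 0, the filled ones being DESeq2 and the fit without degeneration 1 for Gdf6 and the 2 fits without degeneration 1 for Npr2.

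The antisense gene Gm12473 lies at 43631539 to 43641533 on the minus strand of chromosome 4 and overlaps the start of Npr2. No strand option was set in the counting, so pairs from the 2 genes cannot be told apart where their exons overlap. Its row had 46, 33 and 19 counts in wild type and 24, 29 and 25 in degeneration, at most 46 beside the 497 to 882 of Npr2. Its groups overlapped, and its log2 fold change was -0.35 with an adjusted p of 0.544 by edgeR. Spag8, a sperm antigen gene on the other strand, lies 91 bases after the end of Npr2 and is transcribed towards it. Its row had 29, 14 and 8 counts in wild type and 8, 28 and 26 in degeneration. Of the other nearest rows, Gba2, a glucosylceramidase gene, lay between 105 and 155 CPM in wild type and between 87.5 and 101 CPM in degeneration. Hint2, a mitochondrial nucleotide hydrolase, lay between 65.1 and 72.4 CPM in wild type and at 79.97, 146 and 104 CPM in degeneration. Npr2 thus had neighbours with lower and with higher values in degeneration. None of those tested passed 0.05 with 6 libraries, nor did any of the 14967 rows tested.

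The rows most like Npr2 over the 6 libraries followed it closely, with a median difference of 0.490 over the same 463 rows. Chd7, a chromatin remodeller gene that also lies on chromosome 4, differed from it by 0.0724. Its levels were 327, 387 and 289 CPM in wild type and 260, 232 and 221 CPM in degeneration. Asns, asparagine synthetase, differed by 0.0981, with 16.2, 15.1 and 11.5 CPM in wild type and 10.7, 11.01 and 10.3 CPM in degeneration. Ica1, an islet autoantigen gene, differed by 0.110, with 85.1, 99.5 and 73.6 CPM in wild type and 57.6, 60.3 and 59.95 CPM in degeneration. In all 3, as in Npr2, every wild type library was above every degeneration library on the scale of CPM. The 3 were chosen for likeness over these same libraries, so the shared order follows largely from that choice. None passed 0.05 by edgeR with 6 libraries (adjusted p of 0.258 to 0.276), nor did any of the 14967 rows tested.

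The ligand of Npr2 could not be placed beside it. Of 10 other genes of the natriuretic peptide pathway, Npr3, Corin and Pde5a were located, and Nppa, Nppb, Nppc and Npr1 were not. Npr3, the clearance receptor that removes the peptides, was counted over 8443 of its 9389 exon bases. Its levels were 132, 161 and 150 CPM in wild type and 160, 178 and 136 CPM in degeneration. The groups overlapped, and its log2 fold change was -0.11 (SE 0.22, adjusted p = 0.779 by edgeR). Corin, the heart protease that activates the precursor of atrial natriuretic peptide, split the libraries as the heart muscle genes did, with 251, 261 and 362 CPM in wild type, 374 CPM in degeneration 1, but 23.2 and 36.9 CPM in the other degeneration libraries. Corin and Pde5a were counted over only 295 of 5400 and 147 of 9831 exon bases. Pde5a, a phosphodiesterase that breaks down the cyclic GMP made by Npr2, lay between 5.73 and 10.9 CPM in wild type and between 7.82 and 9.13 CPM in degeneration. Of the 3 located genes of this pathway, none passed with 6 libraries, nor did any of the 5434 located genes tested. Corin alone was called lower without degeneration 1, where 26.2% of the located genes tested were called lower.

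Dlx5 and Dlx6 were at or below the floor of detection in every library. Dlx5 had 3, 2 and 1 counts in the wild type libraries and 0, 0 and 1 in the degeneration libraries. Dlx6 had no count in any wild type library and 0, 1 and 0 counts in the degeneration libraries. Neither gene reached 4 counts anywhere, so no fold change is given for them and neither entered the test across rows.

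Summed over libraries, Dlx5 had 6 of 10903417 counts in wild type, or 0.550 CPM with an interval of 0.202 to 1.20 CPM. In degeneration it had 1 of 9747082 counts, or 0.103 CPM with an interval of 0.00260 to 0.572 CPM. The intervals overlapped, and the exact 2-sided permutation test of mean CPM gave p = 0.2. On the TMM scale every wild type library stood above every degeneration library for Dlx5 (p = 0.1 by the exact permutation test), as in 10.6% of all rows averaging at least 1 CPM, on counts of 3 or fewer. Dlx6 had 0 counts in wild type, which allows up to 0.338 CPM, and 1 in degeneration, with the same 0.103 CPM and interval as Dlx5. The exact permutation test gave p = 1. A difference in either gene was not detectable at this depth.

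The surroundings of the 2 genes were read in the same libraries. Dlx6os1, the long antisense RNA that starts between them and is known to regulate both, had 1 count in degeneration 1 and none elsewhere, and Dlx6os2 had none. Sem1, a proteasome subunit gene 284671 bases before Dlx6, stood at 195, 159 and 201 CPM in wild type and 190, 124 and 109 CPM in degeneration. Sdhaf3, an assembly factor of succinate dehydrogenase 73919 bases after Dlx5, stood at 22.5, 20.7 and 31.4 CPM in wild type and 23.9, 38.2 and 35.6 CPM in degeneration. The low Dlx5 and Dlx6 counts thus lay between rows with 74 to 781 counts in each library. Slc25a13, the mitochondrial aspartate-glutamate carrier, lay between 200 and 338 CPM in wild type and between 242 and 450 CPM in degeneration. Dync1i1, a dynein chain gene whose exons are known to hold enhancers of Dlx5 and Dlx6, had 2 to 8 counts in a library. Tac1, the precursor of substance P, had 15, 11 and 3 counts in wild type and 5, 0 and 0 in degeneration. Of the 7 located genes of this interval, 4 were tested with 6 libraries and none passed, nor did any of the 5434 located genes tested. The 4 had a median log2 fold change of -0.20 beside -0.000248 over all located genes tested. Without degeneration 1, 3 of 5 (Sem1, Tac1 and Asns) were called lower, in a comparison where 26.2% of the located genes tested were called lower.

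**Figure D4:**
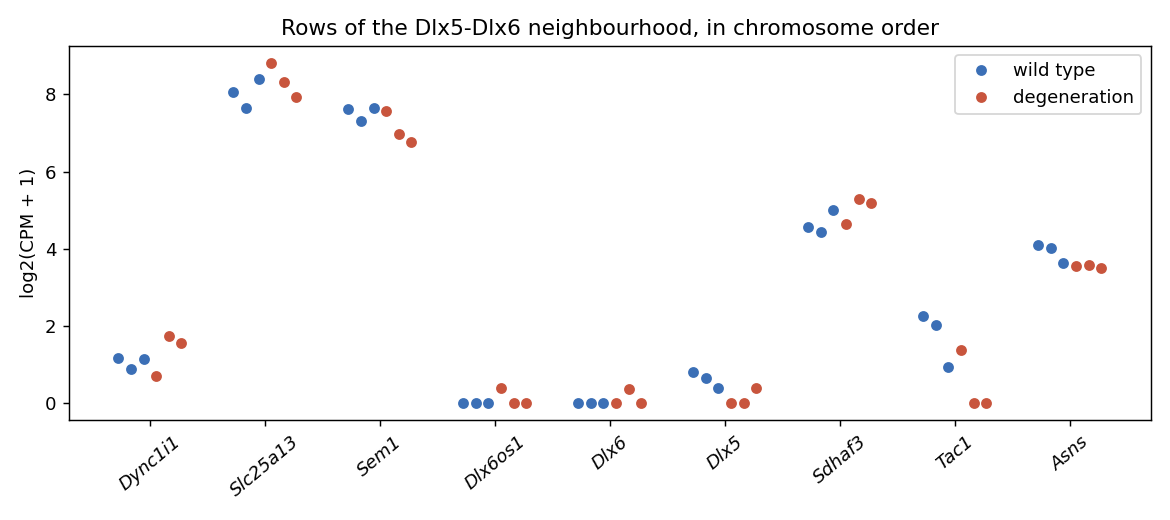
Level, as log2(CPM + 1) on the vertical axis, of the rows around Dlx5 and Dlx6 on chromosome 6, in chromosome order along the horizontal axis (not to scale). Each point is a library, wild type in blue and degeneration in red, replicates 1 to 3 from left to right. Dlx6os1, Dlx6 and Dlx5 lie at or near 0 between Sem1 and Sdhaf3, which have counts in every library.

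Related transcription factors and bone genes were likewise mostly out of reach. None of Dlx1, Dlx2, Dlx3 and Dlx4 could be located. Of 10 partners of Dlx5 and osteoblast genes, only the type I collagen chains Col1a1 and Col1a2 were located, while Runx2, Sp7 and the mineralisation genes were not. Col1a1 stood at 630, 284 and 146 CPM in wild type and 128, 54.2 and 67.6 CPM in degeneration. Its log2 fold change was -2.19 (SE 0.68, adjusted p = 0.233 by edgeR), and the type I collagens are also fibroblast genes. Dmp1, an osteocyte gene and the one osteoblast marker of 5 located, had 3, 1 and 1 counts in wild type and none in degeneration, as low as Dlx5. For the HOXA cluster, homeobox genes of the same chromosome that pattern the body axis, 3 of 12 genes were located. Hoxa9 had no count in wild type 1 to 3 and degeneration 1 and stood at 120 and 107 CPM in degeneration 2 and 3. Hoxa10 had at most 1 count in the former and stood at 35.9 and 49.0 CPM in the latter. Unlike these, neither Dlx5 nor Dlx6 had more than 1 count in degeneration 2 or 3.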

How the data were processed

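Raw counts per gene name were analysed in 6 mouse libraries. Per the file headers, the authors produced these deposited counts with featureCounts 2.0.1, as read pairs over exons with both ends mapped, without chimeric pairs and with no strand option. The headers give no build, and the submitters' processing notes list mm8, mm9 and Bowtie 0.12.2 with no role stated. In a further deposited table, 12 value columns carry names that match no sample label, so it was not used and no FPKM is given. The 4 genes, the gene lists and the rule for the genes named (the 4 genes, overlapping genes, the 3 nearest protein-coding rows in register on each side, the 3 most alike profiles, and up to 4 genes of each list) were chosen with earlier results of these data known.

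Rows were intersected with GENCODE M21 exons on GRCm38 (bedtools 2.31.1, Python 3.11.15, pandas 2.3.3). List genes were located by position: a row not in register was given to the gene with 80% or more of the exon bases it covers, and 100 bases or more (11501 rows, 10913 genes), often over part of its exons. CPM used file totals of 3119215 to 4009562 counts. Tests used edgeR 4.0.16 in R 4.3.3 (quasi-likelihood, TMM, filterByExpr, all 6 libraries, no covariate, Benjamini-Hochberg over all rows tested, threshold 0.05), and the scripts were tested on simulated counts. The SE given for edgeR is the absolute log2 fold change divided by the square root of the F statistic of its test. Degeneration 2 and 3 had TMM factors of 1.23 and 1.25, and the other libraries 0.864 to 0.940. Alternatives were limma-trend (limma 3.58.1, prior count of 2), DESeq2 1.42.0, edgeR with the size factors of DESeq2, no count filter, a mean of at least 1 CPM, scaling without the 20 most abundant rows, the replicate number as a block, genes by position, each library left out, and degeneration 2 and 3 left out. After seeing the data, the filter at 1 CPM was made the base for Gdf6, and genes by position without degeneration 1 were added for Npr2. No pair of libraries was a duplicate: chi-square divided by its degrees of freedom was at least 3.75 in each pair, among rows whose 2 counts sum to 20 or more.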

Additional observations from a re-analysis of the deposited data

How the results depend on the processing

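With 6 libraries, 0 rows passed in edgeR under every normalization, filter and scaling tried, in limma-trend and with genes by position. DESeq2 called 946, degeneration 2 and 3 both left out gave 2, and leaving out 1 library gave 0 to 8703, the latter without degeneration 1. For Npr2 the log2 fold change was -0.87 to -0.47 with 1 library left out (adjusted p of 0.000338 to 0.692, passing only without degeneration 1), and with genes by position and degeneration 1 left out it was -0.85 (adjusted p = 0.000419). Gdf6, Dlx5 and Dlx6 have no fold change under the filter of the test with all 6 libraries, and Gdf6 passed that filter in some fits with libraries left out. With rows of at least 1 CPM, the log2 fold change of Gdf6 was -3.21 in DESeq2 (adjusted p = 0.0278) and -3.87 to -2.77 with 1 library left out (adjusted p of 0.000831 to 0.562, passing only without degeneration 1). The mean CPM difference of Dlx6 was 0 to 0.145 with 1 library left out, 0 being the value without degeneration 2, which holds its 1 count. The cause of these shifts was not tested, apart from that count. The labels do not say whether the replicate numbers pair the libraries. Deviations of same-numbered libraries had correlations of -0.04, 0.09 and -0.09 over 20132 rows, and those of differently numbered libraries lay between -0.113 and 0.111. The degeneration group holds 2 kinds of profile, so these correlations cannot decide it. With the replicate block in edgeR, Npr2 was at -0.59 (adjusted p = 0.386), Gdf6 at -2.98 (adjusted p = 0.293) and 0 rows passed. Depth limits Dlx5 and Dlx6, at 3 counts or fewer in each library, and Gdf6, at 2 to 8 counts in 4 of 6.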
